A study of Homo sapiens with 12 samples.

Results

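The enzymes that write and erase methyl and acetyl groups on histones, together with those that methylate and demethylate DNA, were followed in lapatinib-treated BT474 cells. The set was fixed by a list of gene symbols, which was drawn up with earlier results of these data known. It held 54 of the 26485 genes measured, made up of 13 lysine demethylases, 16 histone methyltransferases and Polycomb subunits, 11 zinc-dependent deacetylases, 4 sirtuins, 6 DNA methylation enzymes and 4 acetyltransferases. All 54 were found, and all 54 passed the filter on low values, HDAC9 only through its Control libraries, so its fall from Control was fixed by the filter.

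Histone lysine methylation can mark either active or silent chromatin, depending on the residue. Methyltransferases place the mark and demethylases remove it. Acetyltransferases such as EP300 and CREBBP open chromatin at enhancers and promoters, and deacetylases reverse this. DNMT1 copies DNA methylation onto the new strand after replication, DNMT3A and DNMT3B place it anew, and the TET proteins oxidise it towards removal. Several of these enzymes, among them EZH2, DNMT1 and SUV39H2, are known to be made mostly in cycling cells, and the KDM5 family has been studied in drug-tolerant cancer cells.

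BT474 is a human line derived from a HER2-amplified luminal breast carcinoma, with a wild-type genotype label, and lapatinib blocks the HER2 and EGFR kinases. Poly(A) RNA was sequenced from 3 libraries each of Control cells (day 0), drug-tolerant persisters (DTP, day 9 in 1 µM lapatinib), drug-tolerant expanded persisters (DTEP, month 6 in the drug) and lapatinib-resistant cells (LR, month 9 in the drug). The Control libraries carry the same treatment label as the others and were read as untreated from their titles. The authors call the libraries of a state technical replicates, and a figure legend in the paper describes 3 parallel plates of cells. Below, n therefore counts libraries of 1 line, and the p-values measure only the spread between those libraries.

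The libraries held 16383363 to 25030482 assigned reads, and 1 read was worth 0.0412 to 0.0576 normalised read counts, the unit of every level given here. The 8 HER2-positive luminal markers were present in every state, with summed levels that ran from 11047 to 11834 for Control and from 14009 to 16748 for DTP libraries, and from 4330 to 6404 for DTEP and 4149 to 5564 for LR libraries. ERBB2 alone averaged 6526 in Control and 1774 in LR libraries. The sums hide single markers, whose log2 changes in LR against Control ran from -3.91 (CDH1) to 2.68 (GATA3), with a median of -1.48. Of 6 fibroblast markers, all but COL1A1 stood at 3 reads or fewer in every Control, DTP and LR library, and the 6 leukocyte and 4 endothelial markers summed to at most 7.80 and 8.94 in any library. A list of 12 genes of dividing cells summed to between 3211 and 3240 for Control, 711 and 735 for DTP, 2583 and 4262 for DTEP, and 910 and 2248 for LR libraries. In bulk RNA, fewer cells making a transcript and less transcript per cell cannot be told apart. DTEP replicate 3 stood apart from its group, with a Pearson's r across genes of 0.934 to 0.962 with the other DTEP libraries and of 0.971 to 0.986 with the LR libraries.

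The start regions of 5 members whose levels moved strongly are shown because they carry letters that E2F factors, regulators of replication genes, are known to bind. Each runs 5′ to 3′ along the gene, from 250 bases before to 50 bases after its RefSeq start on GRCh38.p14. Capitals mark E2F letters (TTTGGCGC, TTTCCCGC, TTTCGCGC, TTTGCCGC, TTTGGCGG or TTTCCCGG), CCAAT and the CHR letters TTTGAA, each searched on both strands.
KDM1B (chr6:18155172-18155471, plus strand): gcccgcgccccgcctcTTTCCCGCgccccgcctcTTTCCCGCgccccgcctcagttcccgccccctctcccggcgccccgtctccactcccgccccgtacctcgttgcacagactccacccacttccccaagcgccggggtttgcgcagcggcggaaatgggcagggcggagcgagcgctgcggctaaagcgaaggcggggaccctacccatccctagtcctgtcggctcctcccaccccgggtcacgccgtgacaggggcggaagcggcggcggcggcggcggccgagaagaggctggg
EZH1 (chr17:42744991-42745290, minus strand): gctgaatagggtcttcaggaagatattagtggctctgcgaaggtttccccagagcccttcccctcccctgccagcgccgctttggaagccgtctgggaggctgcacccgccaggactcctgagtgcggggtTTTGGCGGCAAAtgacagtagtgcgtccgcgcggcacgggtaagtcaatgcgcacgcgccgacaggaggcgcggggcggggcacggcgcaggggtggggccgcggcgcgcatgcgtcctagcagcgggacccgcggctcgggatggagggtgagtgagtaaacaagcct
EZH2 (chr7:148884242-148884541, minus strand): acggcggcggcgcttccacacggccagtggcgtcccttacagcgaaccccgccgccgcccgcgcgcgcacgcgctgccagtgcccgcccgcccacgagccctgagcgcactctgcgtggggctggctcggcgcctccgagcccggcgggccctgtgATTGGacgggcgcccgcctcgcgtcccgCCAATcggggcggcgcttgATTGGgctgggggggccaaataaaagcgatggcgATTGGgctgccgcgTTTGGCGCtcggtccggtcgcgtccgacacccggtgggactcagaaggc
SUZ12 (chr17:31936757-31937056, plus strand): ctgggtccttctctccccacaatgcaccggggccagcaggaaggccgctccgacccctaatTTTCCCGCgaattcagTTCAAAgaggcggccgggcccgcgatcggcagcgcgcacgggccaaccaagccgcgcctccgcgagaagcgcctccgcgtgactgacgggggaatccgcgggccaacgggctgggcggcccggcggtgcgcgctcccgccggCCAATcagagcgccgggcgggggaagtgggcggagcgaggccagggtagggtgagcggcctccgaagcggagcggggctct
DNMT1 (chr19:10194904-10195203, minus strand): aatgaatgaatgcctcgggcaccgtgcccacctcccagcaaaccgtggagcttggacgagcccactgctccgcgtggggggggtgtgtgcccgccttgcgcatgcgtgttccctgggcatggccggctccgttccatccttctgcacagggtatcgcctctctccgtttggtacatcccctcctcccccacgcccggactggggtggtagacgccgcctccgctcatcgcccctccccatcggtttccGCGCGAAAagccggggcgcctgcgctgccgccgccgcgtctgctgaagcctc
In EZH1, matches on opposite strands overlap, which gives the longer run of capitals. A promoter sequence was found for 52 of the 54 members, all but DOT1L and HDAC5. E2F letters occurred in 7 of these 52 (13.5%), against 5.33% of all 35116 promoters of the same length. The 7 were KDM1B, KDM5A, EZH1, EZH2, SUZ12, SIRT6 and DNMT1. They did not share a direction, since EZH1 and SIRT6 were higher in DTP than in Control cells while KDM1B, EZH2, SUZ12 and DNMT1 were lower. CCAAT stood in 28.8% of member promoters and 34.6% of all, and the CHR letters in 9.62% and 15.2%. A match describes letters only and says nothing of binding.

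To ask how these enzymes change as cells enter tolerance, resume growth and become resistant, successive states were compared. From Control to DTP, 16 members fell (29.6% of the 54) and 3 rose (5.56%), called where the limma adjusted p was under 0.05 with a log2 change beyond 1 either way. Over all 13794 genes tested, 15.8% fell and 9.24% rose by the same rule. At the adjusted p alone, 23 members were lower (42.6%, or 22 without HDAC9) and 13 higher (24.1%), against 28.8% and 25.2% of all genes. The median log2 change was -0.46 over the members and -0.01 over all genes. After adjustment of the values for transcript length, described further on, 9 members were lower and 4 higher, against 11.1% and 9.29% of all genes. The median change was then 0.17 over the members and 0.02 over all genes.

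From DTP to DTEP, 13 members rose (24.1%, all but KMT2A with no overlap between groups) and 5 fell (9.26%), where 22.4% of all genes rose and 19.5% fell. The share that rose was therefore close to that of all genes. At the adjusted p alone, 22 were higher and 11 lower (40.7% and 20.4%, against 35.7% and 32.6% of all genes). The median change was 0.42 over the members and 0.08 over all genes. This comparison shares its DTP libraries with the one before it, so a gene low in those libraries tends to fall in the first and rise in the second.

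From DTEP to LR, limma called no member in either direction, with 1.45% of all genes higher and 2.5% lower. At an unadjusted p below 0.05, 17 members were higher (31.5%) and 9 lower (16.7%), against 14.2% and 20.7% of all genes, and edgeR and DESeq2 also called 0. In all, 25 of the 54 members were called in at least 1 of the successive steps and 29 in none.

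**Figure D1:**
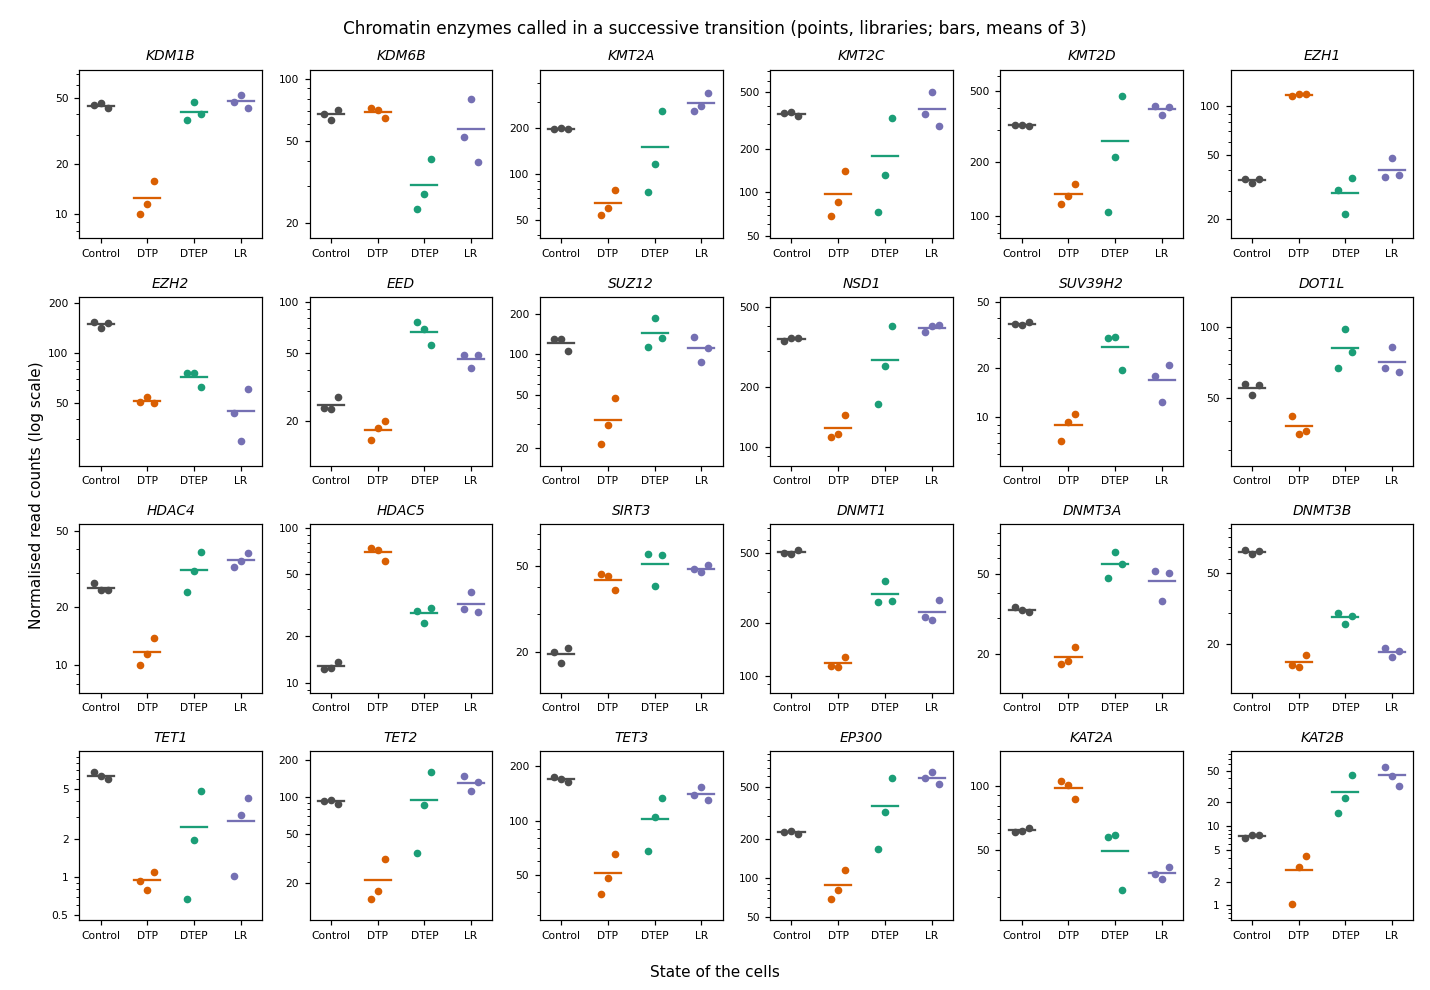
Normalised read counts (log scale) of 24 members called in a successive transition, in each library of Control, DTP, DTEP and LR cells; points are libraries and bars are means of 3. DNMT1, DNMT3B, EZH2 and SUV39H2 sit lower in every DTP than in every Control library, EZH1 and HDAC5 sit higher, and the DTEP points of KMT2A, KMT2C, KMT2D, TET1, TET2 and EP300 spread widely.

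**Figure D2:**
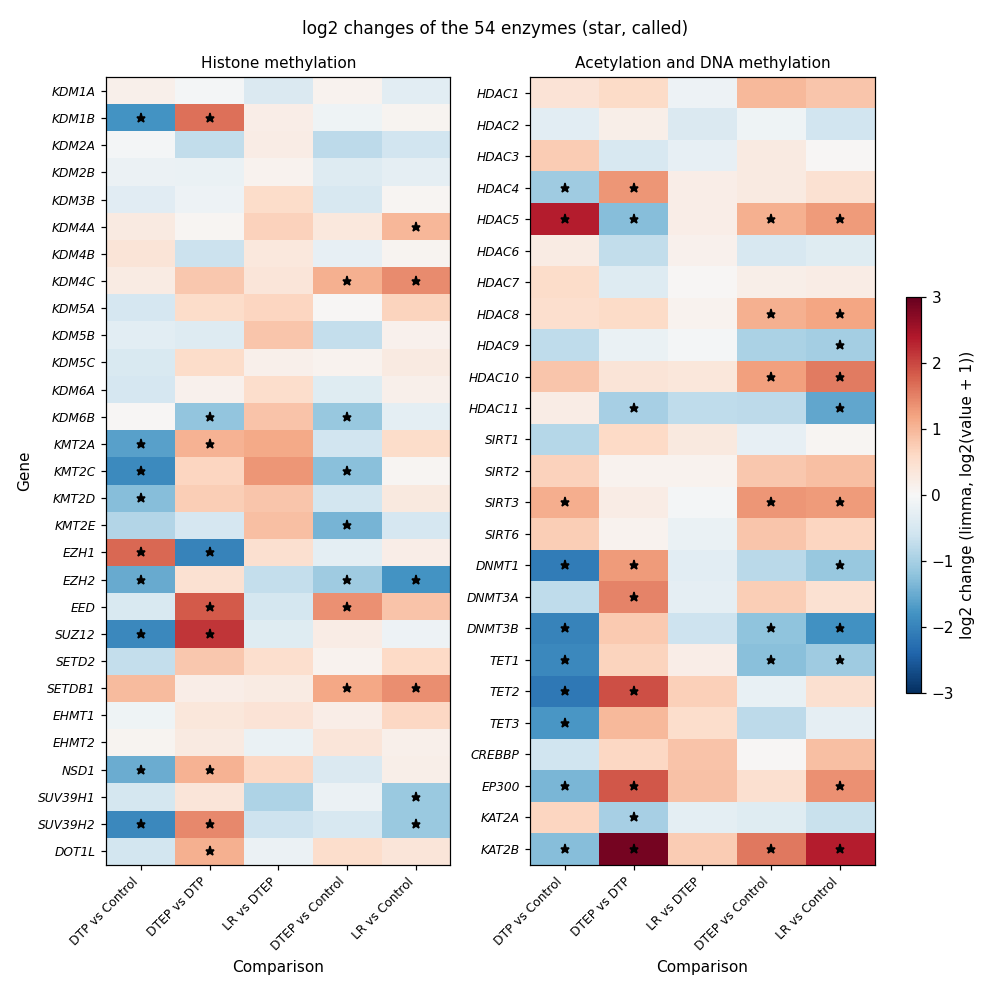
Log2 change of each of the 54 members (rows, by role) in the 5 comparisons (columns), with stars on called changes and colour from lower (blue) to higher (red) on a scale from -3 to 3. The DNA methylation rows are the only role in which every member is below 0 in DTP against Control on the values as deposited (DNMT3A was at 0.02 after length adjustment), and the largest single change is that of KAT2B in DTEP against DTP, 2.87.

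The 6 DNA methylation enzymes passed the adjusted p in the lower direction in DTP cells, 5 of them past the fold limit, with a median change of -1.96. After adjustment of the values for transcript length, described further on, 5 passed and 4 were past the fold limit, with a median of -1.25, and DNMT3A stood at 0.02 (adjusted p 0.943). DNMT1, the maintenance methyltransferase, stood at 500.2, 497 and 524 in Control libraries and at 114, 113 and 129 in DTP libraries. The groups did not overlap (log2 change -2.09, SE 0.14, adjusted p 7.61e-07). DTEP libraries held 263, 348 and 266, higher than every DTP library (log2 change 1.29, SE 0.14, adjusted p 7.9e-06), and LR libraries 218, 209 and 271. DNMT1 remained below Control in LR cells (log2 change -1.13, SE 0.14, adjusted p 2.72e-05). Control cells held 96.2 normalised read counts of DNMT1 per kilobase of transcript, against 15.2 of DNMT3B and 3.52 of DNMT3A.

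DNMT3B, a de novo methyltransferase, also fell into DTP and stayed below Control afterwards. It stood at 67.4, 63.9 and 66.7 in Control, 15.2, 14.9 and 17.3 in DTP, 30.00, 25.7 and 28.9 in DTEP and 18.97, 16.9 and 18.3 in LR libraries. No later library reached a Control library (DTP log2 change -2.00, SE 0.13, adjusted p 5.83e-07, and LR against Control log2 change -1.81, SE 0.13, adjusted p 2.39e-07). DNMT3B also passed the adjusted p between DTEP and LR, short of the fold limit (log2 change -0.61, SE 0.13, adjusted p 0.0235). It had risen from DTP to DTEP, also within the fold limit (log2 change 0.80, SE 0.13, adjusted p 0.000191). DNMT3A, the other de novo enzyme, rose in the same step, from 17.7, 18.5 and 21.6 in DTP to 47.9, 63.97 and 56.1 in DTEP libraries (log2 change 1.49, SE 0.17, adjusted p 7.42e-06). Unlike DNMT3B, DNMT3A then stood above its Control levels of 34.1, 32.9 and 32.4. The ratio of DNMT1 to DNMT3A within a library averaged 15.3 ± 0.783 in Control libraries, 6.15 ± 0.224 for DTP, 5.22 ± 0.415 for DTEP and 5.09 ± 0.769 for LR (SD, n = 3).

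All 3 TET dioxygenases were lower in DTP than in Control cells. TET2 stood at 93.5, 95.2 and 89.1 in Control and 14.8, 17.3 and 31.6 in DTP libraries (log2 change -2.15, SE 0.42, adjusted p 0.00121). It then rose in DTEP, where the libraries spread from 35.5 to 162 (log2 change 1.92, SE 0.42, adjusted p 0.0015), and LR libraries held 148, 113 and 132. TET3 went from 173, 170.03 and 164 to 39.4, 48.03 and 65.2 (log2 change -1.75, SE 0.23, adjusted p 7.66e-05) and reached 67.4, 104 and 133 in DTEP libraries, a change that passed the adjusted p but not the fold limit (log2 change 0.96, SE 0.23, adjusted p 0.00253). TET1 was the least abundant of the family, at 6.81, 6.31 and 5.96 in Control and 0.939, 0.79 and 1.09 in DTP libraries (log2 change -1.92, SE 0.41, adjusted p 0.00188). Its DTEP libraries overlapped DTP at 0.67, 1.98 and 4.83, and it was still below Control in LR cells, at 1.01, 3.10 and 4.26 (log2 change -1.06, SE 0.41, adjusted p 0.0371).

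Polycomb repressive complex members, which methylate lysine 27 of histone H3 to silence genes, changed in different directions. EZH2, the catalytic subunit of dividing cells, was measured at 155, 142 and 152 in Control and 50.9, 53.95 and 50.04 in DTP libraries (log2 change -1.52, SE 0.21, adjusted p 0.0001). EZH1, its paralogue that predominates in resting cells, was measured at 35.6, 33.6 and 35.5 in Control and 116, 119.5 and 119 in DTP libraries (log2 change 1.73, SE 0.18, adjusted p 1.33e-05). Neither pair of groups overlapped, and the ratio of EZH2 to EZH1 within a library went from 4.29 ± 0.0672 in Control to 0.436 ± 0.0165 in DTP. This ratio is a count ratio and is not corrected for transcript length.

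In DTEP cells EZH1 fell back to 30.05, 21.4 and 35.9 (log2 change -2.02, SE 0.18, adjusted p 1.03e-06), a range that overlapped Control. EZH2 stood at 76.1, 75.4 and 62.2 and its change from DTP did not pass the test (log2 change 0.45, SE 0.21, adjusted p 0.0697). EZH2 then lay below Control in both long-term states, in DTEP (log2 change -1.06, SE 0.21, adjusted p 0.000814) and in LR (log2 change -1.78, SE 0.21, adjusted p 1.22e-05), where libraries held 43.5, 29.4 and 61.05. The EZH2 to EZH1 ratio averaged 2.60 ± 0.896 in DTEP and 1.15 ± 0.509 in LR, so it did not return to its Control value in any of those libraries.

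The core partners SUZ12 and EED were lower in DTP than in Control, as EZH2 was, and took other courses afterwards. SUZ12, needed for the activity of the complex, stood at 131, 129 and 106 in Control, 21.3, 29.4 and 46.9 in DTP, 113, 186 and 133 in DTEP and 134, 87.9 and 111 in LR libraries. It fell into DTP (log2 change -1.94, SE 0.27, adjusted p 0.000108) and rose into DTEP (log2 change 2.15, SE 0.27, adjusted p 1.81e-05), and its DTEP and LR libraries overlapped Control. SUZ12 has a near-identical pseudogene, so its reads are uncertain where the counting could split them. EED, which binds the methyl mark itself, was 23.8, 23.7 and 27.5 in Control, 15.5, 18.2 and 19.98 in DTP, 75.7, 68.9 and 55.6 in DTEP and 48.6, 40.7 and 48.6 in LR libraries. EED fell into DTP within the fold limit (log2 change -0.47, SE 0.16, adjusted p 0.0269). It rose from DTP to DTEP (log2 change 1.84, SE 0.16, adjusted p 9.91e-07), and every DTEP library exceeded every Control library (log2 change 1.37, SE 0.16, adjusted p 1.46e-05).

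**Figure D3:**
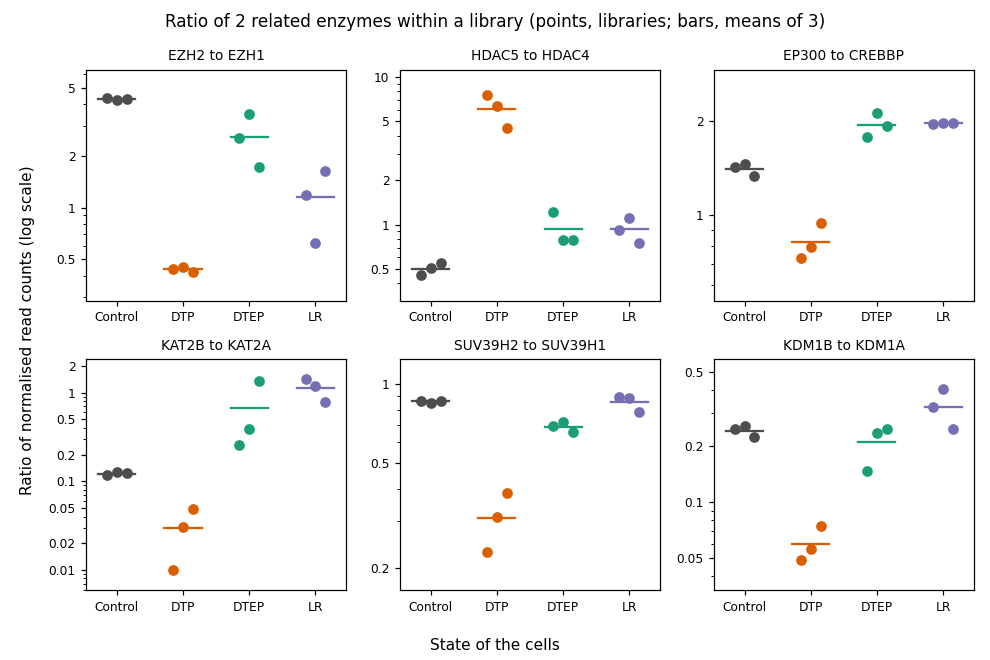
Ratio of normalised read counts of 2 related enzymes within each library (log scale), for 6 pairs in Control, DTP, DTEP and LR cells; points are libraries and bars means of 3. EZH2 to EZH1 averages 4.29 in Control and 0.436 in DTP, HDAC5 to HDAC4 0.505 and 6.10, and KAT2B to KAT2A goes from 0.0297 in DTP to 1.13 in LR.

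Of the enzymes that methylate lysine 9 of histone H3, a mark of heterochromatin, SUV39H2 was the only one called into DTP. Its libraries held 36.5, 36.3 and 37.9 in Control, 7.20, 9.38 and 10.5 in DTP, 30.05, 30.7 and 19.3 in DTEP and 17.7, 12.3 and 20.7 in LR. It fell into DTP (log2 change -1.93, SE 0.23, adjusted p 3.89e-05), rose into DTEP (log2 change 1.45, SE 0.23, adjusted p 0.000127) and lay below Control in LR (log2 change -1.11, SE 0.23, adjusted p 0.00112). Its paralogue SUV39H1 went from 42.2, 42.8 and 43.97 to 31.4, 30.01 and 27.1 into DTP, which did not pass the test (log2 change -0.53, SE 0.22, adjusted p 0.0558). SUV39H1 was lower in LR libraries, at 19.8, 13.9 and 26.5, than in DTEP libraries, at 43.5, 42.9 and 29.4, which passed the adjusted p but not the fold limit (log2 change -0.93, SE 0.22, adjusted p 0.0307).

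SETDB1, which silences repeats and genes bound by zinc-finger repressors, went the opposite way from SUV39H2. It rose from 58.96, 61.1 and 65.03 in Control to 116, 119 and 124 in DTP libraries, just under the fold limit (log2 change 0.95, SE 0.15, adjusted p 0.000311). It stayed high, with 163, 147 and 183 in LR libraries (log2 change 1.39, SE 0.15, adjusted p 7.26e-06 against Control). EHMT1 and EHMT2, the paired enzymes of the dimethyl mark, did not pass the test from Control to DTP (log2 changes of -0.14 and 0.08). Reads of EHMT2 are uncertain, since 14.9% of its transcript overlaps exons of EHMT2-AS1 on the opposite strand.

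The 4 KMT2 members, named for a family that methylates lysine 4 of histone H3, all passed the adjusted p in the lower direction in DTP cells. After adjustment for transcript length, KMT2A and KMT2C still passed it, while KMT2D stood at -0.15 (adjusted p 0.535) and KMT2E at -0.22 (adjusted p 0.459). KMT2A stood at 197, 202 and 197 in Control and 54.2, 60.2 and 79.4 in DTP libraries (log2 change -1.63, SE 0.33, adjusted p 0.00158). KMT2C stood at 354, 361 and 343 and 68.6, 85.9 and 139.9 (log2 change -1.90, SE 0.43, adjusted p 0.00306), with the caution that copies of part of the gene lie elsewhere in the genome. KMT2D stood at 319, 322 and 317 and 116, 129 and 151 (log2 change -1.28, SE 0.38, adjusted p 0.0133). The Control and DTP libraries did not overlap for any of the 3, and KMT2E missed the fold limit (log2 change -0.89, SE 0.33, adjusted p 0.0379).

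In DTEP cells the libraries of these genes disagreed. KMT2A gave 76.6, 116 and 262, KMT2C 73.4, 133 and 331 and KMT2D 104, 214 and 467, with replicate 3 the highest for each. KMT2A was the only one of them called from DTP to DTEP (log2 change 1.05, SE 0.33, adjusted p 0.0145), and its groups overlapped. NSD1, which methylates lysine 36 of histone H3, had the same shape, with 339, 349 and 351 in Control, 112, 116 and 145 in DTP, 165, 255 and 399.9 in DTEP and 375, 400.1 and 405 in LR libraries (log2 change -1.48, SE 0.24, adjusted p 0.000365 into DTP, and log2 change 1.05, SE 0.24, adjusted p 0.00217 into DTEP). SETD2, which trimethylates the same residue, passed the adjusted p in both steps without reaching the fold limit, at log2 changes of -0.71 and 0.81, and its length-adjusted change into DTP was 0.01 (adjusted p 0.956). DOT1L, the methyltransferase of lysine 79, changed by -0.54 on the log2 scale into DTP (adjusted p 0.0131, or 0.11 with adjusted p 0.638 after length adjustment) and then rose from 42.01, 35.2 and 36.2 to 66.7, 98.6 and 78.6 (log2 change 1.07, SE 0.16, adjusted p 7.98e-05). After length adjustment, the rises of KMT2A, NSD1 and DOT1L into DTEP were 0.47, 0.51 and 0.69, all inside the fold limit.

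From Control to DTP, 11 of the 13 demethylases did not pass the adjusted p, 1 passed it in each direction (28.8% of all genes were lower and 25.2% higher), and KDM1B alone was called. With the length adjustment 8 passed it, KDM1B lower and KDM2A, KDM4A, KDM4B, KDM4C, KDM5A, KDM5B and KDM6B higher, where 26% of all genes were higher and 24.2% lower, and KDM1B was again the only one called. KDM1B, which demethylates lysine 4 of histone H3, stood at 45.1, 46.6 and 43.4 in Control, 10.1, 11.6 and 15.9 in DTP, 36.6, 47.3 and 39.8 in DTEP and 47.4, 52.4 and 43.3 in LR libraries. KDM1B fell into DTP (log2 change -1.79, SE 0.17, adjusted p 9.11e-06) and rose into DTEP (log2 change 1.66, SE 0.17, adjusted p 4.17e-06), and the DTEP and LR libraries overlapped Control. Its paralogue KDM1A held 182, 182 and 194 in Control and 207, 207 and 212 in DTP libraries, which did not pass the test (log2 change 0.16, SE 0.16, adjusted p 0.41). The KDM1B to KDM1A ratio averaged 0.242 ± 0.0165 in Control and 0.0600 ± 0.0135 in DTP.

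KDM6B, which removes the Polycomb mark, overlapped its Control range in DTP, at 72.4, 70.7 and 64.4 against 67.4, 63.1 and 70.8. It fell to 23.2, 27.7 and 40.9 in DTEP libraries (log2 change -1.19, SE 0.24, adjusted p 0.000898), while LR libraries spread over 52.3, 79.97 and 39.2. KDM6A, its relative, was called in none of the steps. KDM4C, an eraser of lysine 9 methylation, rose in the long-term states, from 16.3, 15.5 and 17.6 in Control to 38.04, 30.7 and 37.6 in DTEP and 36.6, 51.9 and 50.8 in LR libraries (log2 change 1.43, SE 0.17, adjusted p 1.52e-05 in LR). KDM4A was also higher in LR, between 244 and 271 in the 3 libraries, against 125, 125 and 129.7 (log2 change 1.00, SE 0.22, adjusted p 0.00177).

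Among the remaining demethylases, KDM2A, an eraser of lysine 36 methylation, was lower in DTEP than in DTP (log2 change -0.73, SE 0.13, adjusted p 0.000312). KDM4B, another eraser of lysine 9 methylation, was higher in DTP than in Control (log2 change 0.39, SE 0.14, adjusted p 0.0319) and lower in DTEP than in DTP (log2 change -0.64, SE 0.14, adjusted p 0.00135), with each of these changes inside the fold limit. KDM2B and KDM3B passed the test in none of the successive steps, and their levels ran from 54.5 to 84.2 and from 135 to 273 over the 12 libraries.

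The KDM5 enzymes, erasers of lysine 4 methylation, were not called in any successive step. KDM5A held 88.3, 91.4 and 85.5 in Control and 54.5, 60.6 and 71.98 in DTP libraries (log2 change -0.51, SE 0.23, adjusted p 0.0796), and KDM5B 297, 304 and 297 and 209, 236 and 278 (log2 change -0.32, SE 0.14, adjusted p 0.0692). No DTP library was above a Control library for either gene in the deposited values, but the length-adjusted changes had the other sign and passed the adjusted p, at 0.34 for KDM5A (adjusted p 0.0243) and 0.45 for KDM5B (adjusted p 0.0117). KDM5C was higher in DTEP than in DTP within the fold limit (log2 change 0.55, SE 0.18, adjusted p 0.0185). KDM5B was the only member higher in LR than in DTEP at the adjusted p, from 179.9, 162 and 206 to 333, 353 and 294 (log2 change 0.84, SE 0.14, adjusted p 0.00848). The adjusted p alone was passed by 1.85% of members in that direction and 3.7% in the other, against 3.04% and 4.31% of all genes.

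Among acetyltransferases, EP300 and CREBBP, which acetylate enhancers, were both measured, and whether their changes differ was not tested. EP300 stood at 226, 228 and 217 in Control and 68.9, 80.4 and 115 in DTP libraries (log2 change -1.37, SE 0.34, adjusted p 0.00542). CREBBP went from 159, 156 and 162 to 93.9, 102 and 121, which did not pass the test (log2 change -0.60, SE 0.31, adjusted p 0.125). After length adjustment, EP300 stood at -0.64 (adjusted p 0.0363), inside the fold limit, and CREBBP at 0.25 (adjusted p 0.275). EP300 then rose into DTEP (log2 change 1.86, SE 0.34, adjusted p 0.000434), with libraries at 166, 321 and 585, and every LR library, at 582, 646 and 525, was above every Control library (log2 change 1.38, SE 0.34, adjusted p 0.00404). The ratio of EP300 to CREBBP within a library averaged 1.41 ± 0.0626 in Control libraries, 0.824 ± 0.110 for DTP, 1.94 ± 0.171 for DTEP and 1.96 ± 0.0111 for LR.

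KAT2A and KAT2B, paralogous acetyltransferases of the SAGA-type complexes, moved in opposite directions. KAT2A rose within the fold limit into DTP (log2 change 0.64, SE 0.20, adjusted p 0.0157) and fell from 105, 100.3 and 86.3 to 57.2, 58.6 and 32.3 in DTEP libraries (log2 change -1.01, SE 0.20, adjusted p 0.000636). KAT2B stood at 7.13, 7.72 and 7.73 in Control, 1.04, 3.06 and 4.20 in DTP, 14.7, 22.8 and 44.1 in DTEP and 55.4, 43.2 and 32.1 in LR libraries. It fell into DTP (log2 change -1.28, SE 0.39, adjusted p 0.0162). Its rise into DTEP was the largest change of any member (log2 change 2.87, SE 0.39, adjusted p 4.19e-05), and LR exceeded Control (log2 change 2.35, SE 0.39, adjusted p 0.000243). The KAT2B to KAT2A ratio averaged 0.122 ± 0.0042 in Control libraries, 0.0297 ± 0.0194 for DTP, 0.670 ± 0.605 for DTEP and 1.13 ± 0.333 for LR.

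Of the 11 zinc-dependent deacetylases, 6 passed the adjusted p in the higher direction in DTP cells and 2 in the lower (25.2% and 28.8% of all genes), and the median change was 0.41. The 2 lower were HDAC4 and HDAC9, the latter by way of the filter. With the length adjustment 5 were higher and HDAC4 alone was lower, with a median of 0.48. HDAC5, a class IIa deacetylase shuttled between nucleus and cytoplasm, had the largest rise of any member into DTP. Its libraries held 12.2, 12.4 and 13.5 in Control, 74.5, 72.4 and 61.5 in DTP, 29.2, 24.3 and 30.5 in DTEP and 29.9, 38.7 and 28.5 in LR. It rose into DTP (log2 change 2.36, SE 0.16, adjusted p 6.53e-07) and fell in DTEP (log2 change -1.28, SE 0.16, adjusted p 1.81e-05), though each DTEP and LR library stayed above Control (log2 change 1.27, SE 0.16, adjusted p 2.27e-05 in LR). HDAC4, of the same class, did the reverse, from 26.7, 24.5 and 24.6 to 9.97, 11.4 and 13.8 (log2 change -1.06, SE 0.19, adjusted p 0.000583) and on to 23.97, 30.8 and 38.9 in DTEP (log2 change 1.33, SE 0.19, adjusted p 5e-05). After length adjustment, both HDAC4 changes lay inside the fold limit, at -0.35 into DTP (adjusted p 0.0333) and 0.91 into DTEP (adjusted p 3.47e-05). The HDAC5 to HDAC4 ratio averaged 0.505 ± 0.0458 in Control libraries, 6.10 ± 1.52 for DTP, 0.931 ± 0.248 for DTEP and 0.927 ± 0.185 for LR.

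Class I enzymes, the nuclear deacetylases of the large co-repressor complexes, were called in no successive step. HDAC1 rose from 103, 99.3 and 105 in Control to 135, 134 and 138 in DTP and 242, 178 and 192 in DTEP libraries, within the fold limit in each step (log2 change 0.41, SE 0.13, adjusted p 0.0189, then log2 change 0.57, SE 0.13, adjusted p 0.00188). HDAC3 was higher in DTP, at 138, 126 and 116 against 70.8, 74.9 and 76.4 (log2 change 0.76, SE 0.17, adjusted p 0.00279), and HDAC2 did not pass the test (log2 change -0.31, SE 0.17, adjusted p 0.152). HDAC6, which deacetylates tubulin, was lower in DTEP than in DTP (log2 change -0.74, SE 0.19, adjusted p 0.0044), and HDAC7, of class IIa, was higher in DTP than in Control (log2 change 0.55, SE 0.15, adjusted p 0.00935). HDAC8 and HDAC10 were called only against Control, with LR changes of 1.18 and 1.56. HDAC11, the sole class IV member, fell from 47.9, 42.2 and 32.3 in DTP to 22.8, 17.4 and 18.97 in DTEP and 13.01, 6.92 and 14.97 in LR libraries (just past the fold limit from DTP to DTEP, with adjusted p 0.00315, and log2 change -1.56, SE 0.25, adjusted p 0.000157 for LR against Control). HDAC9 held 1.06, 1.14 and 1.02 in Control libraries, against 0 to 3 reads in each DTEP and 0 to 2 in each LR library. It passed the filter only through Control, so lower levels elsewhere were fixed by the filter, and no fold is given.

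The sirtuins, which need NAD to deacetylate, all passed the adjusted p from Control to DTP, 3 higher and 1 lower (25.2% and 28.8% of all genes). After adjustment for transcript length, SIRT6 no longer passed it (log2 change 0.41, adjusted p 0.103). SIRT3, the mitochondrial member, rose from 20.01, 17.9 and 21.01 in Control to 46.1, 45.1 and 38.6 in DTP libraries (log2 change 1.10, SE 0.15, adjusted p 0.000122) and stayed there, with 48.6, 47.04 and 50.3 in LR libraries. SIRT2 and SIRT6 were higher by log2 changes of 0.70 and 0.73. SIRT1 was the exception, lower at 23.9, 31.8 and 40.8 against 59.9, 56.5 and 55.2 (log2 change -0.84, SE 0.20, adjusted p 0.00338). A stretch of 2.91% of the SIRT3 transcript overlaps exons of RIC8A on the opposite strand, whose reads cannot be told apart if strand was ignored.

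Against Control, the long-term states kept part of these differences. DTEP cells had 8 members higher (14.8%) and 6 lower (11.1%), against 15.1% and 16.4% of all genes. LR cells had 9 higher (16.7%) and 8 lower (14.8%), against 16.9% and 19.6% of all genes, so no share exceeded the background. The 9 higher in LR were KDM4A, KDM4C, SETDB1, HDAC5, HDAC8, HDAC10, SIRT3, EP300 and KAT2B. The 8 lower were EZH2, SUV39H1, SUV39H2, HDAC9, HDAC11, DNMT1, DNMT3B and TET1, or 7 of 53 (13.2%) without HDAC9.

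Transcript length, cell division and position near ERBB2 moved with these results. The change from Control to DTP fell with the length of the transcript over all genes with a known length (13246, or 96.03% of those tested), with a Spearman's rho across genes of -0.42, and with a rho of -0.51 over the 54 members. Genes are not independent replicates, and the points share their libraries. Split by length into 5 equal groups, the genes of the shortest (63 to 1721 bases) had a median change of 0.38, and those of the longest (5736 to 34626 bases) one of -0.68, with 34.6% of the latter called lower. Of the 54 members, 23 lay in that longest group, 9 of the 16 called lower among them. Within single libraries, the rho of the deviation from the Control mean with length was -0.46, -0.44 and -0.33 in DTP, -0.35, -0.19 and -0.02 in DTEP, and between -0.02 and 0.01 in LR. In LR against DTEP, the rho with length was 0.36 over all genes and 0.61 over the members.

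**Figure D4:**
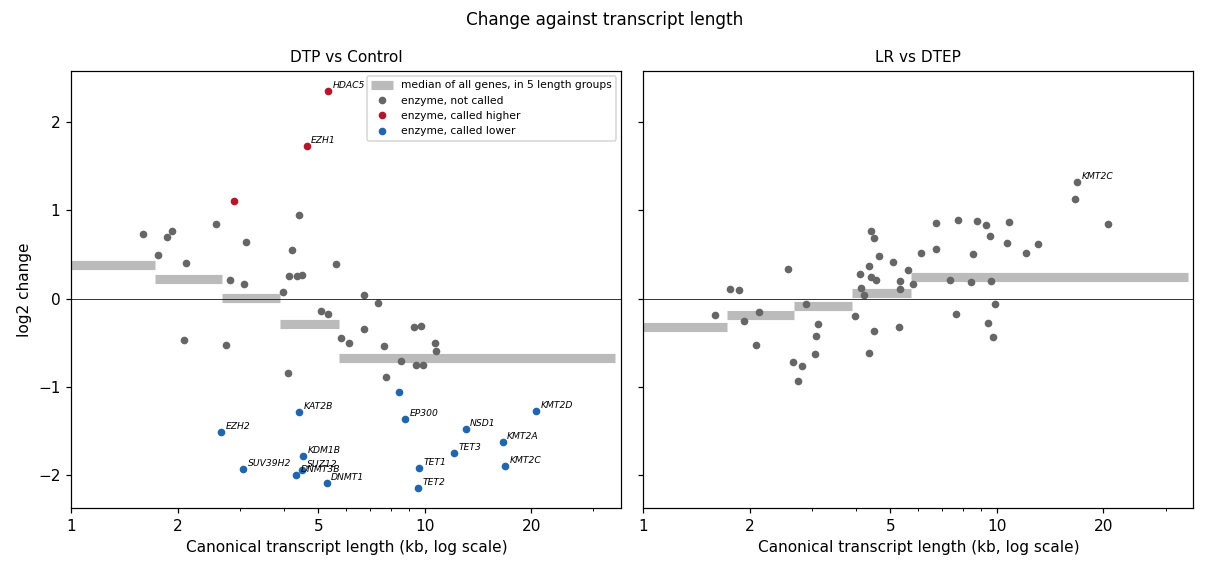
Log2 change of DTP against Control (left) and of LR against DTEP (right) against transcript length (kb, log scale) for the 54 members (points, coloured where called), with the median of all genes in each of 5 length groups (grey bars, the first drawn from 1 kb). On the left the medians run from 0.38 in the shortest group to -0.68 in the longest, where KMT2A, KMT2C, KMT2D, NSD1, TET3 and EP300 lie, and on the right no member is called.

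When the values were adjusted for length within each library, an alternative chosen after seeing the data, 9 members were lower and 4 higher in DTP than in Control, against 11.1% and 9.29% of all genes. KMT2A, KMT2C, KMT2D, NSD1, HDAC4, TET3 and EP300 then missed the fold limit, with log2 changes of -0.59, -0.85, -0.15, -0.54, -0.35, -0.84 and -0.64. KDM1B, EZH2, SUZ12, SUV39H2, DNMT1, DNMT3B, TET1, TET2 and KAT2B stayed called, as did the rises of EZH1, HDAC5 and SIRT3, and SETDB1 became the fourth member called higher (log2 change 1.22). At the adjusted p alone, 17 members were higher and 18 lower in DTP (31.5% and 33.3%, against 26% and 24.2% of all genes), and 14 of the 54 changed sign. From DTP to DTEP the adjusted values gave 9 higher and 5 lower members, against 20.1% and 20.8%.

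**Figure D5:**
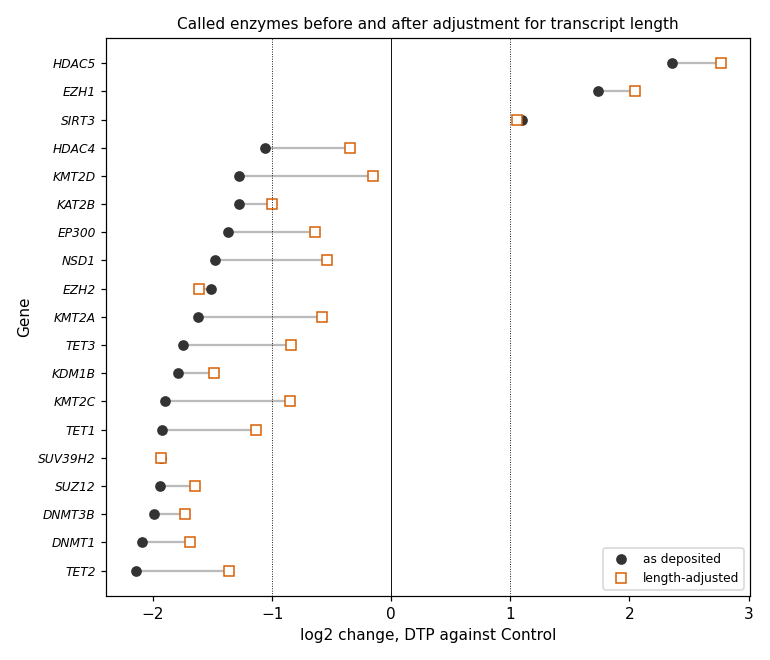
Log2 change from Control to DTP of the 19 members called, on the values as deposited (filled circles) and after adjustment for transcript length (open squares), with dotted lines at the fold limit. The squares of KMT2D, HDAC4, NSD1, KMT2A, EP300, TET3 and KMT2C lie inside the limit, and those of EZH2 and SUV39H2 stay near their circles.

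The dividing-cell list fell in all 12 of its genes from Control to DTP and rose in 11 of 12 from DTP to DTEP. DNMT1 and SUV39H2 were called in the same directions. EZH2 fell into DTP, but its change into DTEP did not pass the test (log2 change 0.45, adjusted p 0.0697). In DTEP against Control, 1 of the 12 was higher and 0 were lower, while EZH2 was lower. In LR against Control, 8 of the 12 were lower. The part of this list in the changes of the enzymes was not tested. KAT2A, EZH1 and HDAC5 lie 2.38, 2.97 and 4.35 Mb from ERBB2 on chromosome 17, and all 3 fell from DTP to DTEP. Of the 158 tested genes within 5 Mb of ERBB2, a window chosen after the values were seen, 81 fell in that step (51.3%, against 19.5% of all genes), with a median change of -1.02. From Control to DTP, the same 158 genes had a median change of 0.24. What this stretch contributes to the fall of these 3 enzymes was not tested.

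The comparison of LR with DTEP depended on DTEP replicate 3. Without it, 10 members were higher, KDM4A, KDM6B, KMT2A, KMT2C, KMT2D, KMT2E, TET2, CREBBP, EP300 and KAT2B, and SUV39H1 was lower, where 6.44% and 9.7% of all genes were called. With the length adjustment as well, KMT2C and KAT2B were higher and HDAC2 lower, against 4.97% and 8.46% of all genes. Without the same library, DTEP against DTP gave 11 members higher (20.4%) and 4 lower (7.41%), against 22.3% and 19% of all genes.

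Of 92 other chromatin genes chosen with the members, which held further writers and erasers as well as partners and readers, 89 could be tested. From Control to DTP, 15 of the 89 fell and 5 rose, where 15.8% of all genes fell and 9.24% rose. The median change was -0.21, against -0.01 over all genes. UHRF1, which brings DNMT1 to newly replicated DNA, went from 25.9 ± 2.13 to 0.276 ± 0.199 normalised read counts (n = 3), a log2 change of -4.41. CBX5, a heterochromatin protein that reads lysine 9 methylation, fell by 2.28 on the log2 scale. CBX7, a Polycomb reader, and SUPT3H, of the SAGA complex, rose by 1.52 and 1.15. From DTP to DTEP, 21 of the 89 rose and 11 fell, where 22.4% of all genes rose and 19.5% fell. UHRF1 stood at 4.96, PHF19, a Polycomb accessory protein, at 2.35, TADA2A, an adaptor of acetyltransferase complexes, at -2.31 and SIRT4 at -1.73. From DTEP to LR, CBX3, a heterochromatin protein, was the only one called, at -1.05, with 1.45% of all genes higher and 2.5% lower.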

How the data were processed

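The authors made stranded mRNA libraries from BT474 cells, used Rsubread to align reads to hg38 and to count them over RefSeq genes, at default settings, which ignore strand. They deposited a normalised signal per gene and library. All 199680 values above 0 (100%) were whole multiples of 1 read within 1e-06, so read counts were recovered, and the deposited signal equalled edgeR's trimmed-mean scaled CPM. Depth was 16383363 to 25030482 reads per library, and limits of 3 reads (0.124 to 0.173) cover counting error only.

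Here limma 3.58.1 (R 4.3.3) was fitted to log2(value + 1) of all 12 libraries with a variance trend, for the 13794 genes whose value reached 1 in 3 or more libraries. The study also used limma on logarithms, with a larger fold limit of 2 on the log2 scale. Tests were two-sided with Benjamini-Hochberg adjustment over all genes in each of 5 comparisons. Calls needed an adjusted p under 0.05 together with a log2 change beyond 1 in either direction. Adding 1 understates changes of low genes. Transcript lengths are of Ensembl canonical transcripts (GENCODE), known for 13246 tested genes. Gene positions and promoters are from RefSeq on GRCh38.p14.

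The members and lists were chosen with earlier results of these data known. Full statistics are given for up to 24 members called in a successive transition, largest change first, and of the other chromatin genes for the 2 highest and 2 lowest changes among those called in each. Others, such as HDAC11 and members called only against Control, are named by role or after their values were seen. Ratios of related enzymes are descriptions. The steps were tried on simulated reads, with changes in DTP only, folds beyond the limit used here and a single fixed spread. Smaller folds and the spread of the real libraries were not covered. Alternatives were other pseudocounts, filters, scalings and fold limits, no trend, only the libraries compared, the replicate number as a block, edgeR 4.0.16 and DESeq2 1.42.0 on recovered reads, each library left out, and a length adjustment added after seeing the data.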

Additional observations from a re-analysis of the deposited data

How the results depend on the processing

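Of the 37 changes called in a successive transition, all kept their direction in every alternative, 23 stayed called in every alternative that kept the fold limit of 1, 25 in the length-adjusted fit and 6 with the fold limit of 2. With an absolute log2 change above 2, in the order higher and lower, DTP against Control gave 1 and 2 members, DTEP against DTP 2 and 1, DTEP against Control 0 and 0, and LR against Control 1 and 0. With the adjusted p alone, DTP against Control gave 13 higher and 23 lower (22 lower without HDAC9). DTEP against DTP gave 22 and 11, and LR against DTEP 1 and 2. DTEP against Control gave 14 and 15, and LR against Control 19 and 11, with 14 and 10 lower without HDAC9. For DTEP and LR against Control, the share of all genes that passed the adjusted p alone was not counted.

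Changes that were not called did change sign. With the length adjustment, with or without DTEP replicate 3, the log2 change in DTP against Control became 0.58 for KDM2A, 0.22 for KDM3B, 0.34 for KDM5A, 0.45 for KDM5B, 0.49 for HDAC2, 0.0076 for SETD2, 0.11 for DOT1L, 0.047 for HDAC9 and 0.017 for DNMT3A. The last 4 had passed the adjusted p as lower and no longer did, while KDM2A, KDM5A and KDM5B then passed it as higher in both fits, and KDM3B and HDAC2 in the one without DTEP replicate 3. KDM2A also stood at 0.00019 with median-of-ratios scaling, 0.017 by edgeR and 0.015 by DESeq2. From DTP to DTEP, KDM4A stood at -0.058 with median-of-ratios scaling, -0.12 length-adjusted, and -0.42 length-adjusted without DTEP replicate 3, and KDM6A at -0.16 and -0.39 in the last 2 of these. Leaving out 1 library at a time gave -0.29 to 0.22 for KDM4A, below 0 without DTEP replicate 3, and -0.20 to 0.29 for KDM6A, below 0 without DTEP replicate 3 or DTP replicate 1.

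The length adjustment gave 9 lower members in DTP against Control, with or without DTEP replicate 3, and 3 lower in DTEP against Control. With both, LR against DTEP gave 2 higher and 1 lower. Leaving out 1 library at a time gave 3 to 4 higher and 13 to 18 lower members in DTP against Control, 11 to 19 and 3 to 5 for DTEP against DTP, 0 to 10 and 0 to 1 for LR against DTEP, 8 to 8 and 3 to 8 in DTEP against Control, and 8 to 9 and 4 to 8 in LR against Control. The 10 came without DTEP replicate 3, and without LR replicate 3 the same comparison gave 1 and 1. Without DTP replicate 1 or 2, DTEP against DTP gave 3 lower, without DTEP replicate 1, DTEP against Control gave 3 lower, and without LR replicate 2, LR against Control gave 4 lower. Without DTP replicate 1, the falls of KMT2D, HDAC4 and KAT2B in DTP were no longer called. From DTP to DTEP, calls of KMT2A, NSD1, DOT1L, HDAC11 and KAT2A were lost without some single libraries. In the same step, the length adjustment lost the calls of KMT2A, NSD1, DOT1L, HDAC4 and HDAC11. Median-of-ratios scaling lost those of KMT2A, NSD1 and DOT1L, DESeq2 that of DOT1L, and the fit of only the libraries compared that of KMT2A. Where a value moved, the cause was not tested.

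Replicate numbers did not pair the samples. Same-numbered libraries of different groups had correlations of deviations from -0.44 to 0.36, over 0.1 in 2 of 18 pairs, and 2 of 12 libraries correlated best with their own number. With the replicate block, LR against DTEP gave 1 member higher and the other counts did not move.

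Genes near the limit of 3 reads, HDAC9 among the members, are measured too thinly for a fold.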
